A study of Bos taurus with 4 samples.

Results

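Open chromatin was examined along the 4 HOX gene clusters in rumen epithelial primary cells (REPC). HOX regions were all regions of the deposited ATAC-seq table whose list of nearby genes named a gene starting with HOXA, HOXB, HOXC or HOXD. There were 63 such regions among 115970 in all, built from 178 of 362102 listed intervals. They named 33 HOX genes. The members were chosen among the listed regions by gene name and position. No measured value entered the rule, but it was set with earlier results of these data known.

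HOX genes encode homeodomain transcription factors that set the identity of body segments along the head-to-tail axis of the embryo. They lie in clusters whose gene order follows the order of expression, from the low-numbered (anterior) to the high-numbered (posterior) paralogs, and many stay active in adult epithelia and connective tissue as a record of position. Polycomb proteins keep silent HOX genes closed, Trithorax proteins keep active ones open, and retinoic acid switches on the anterior genes first.

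ATAC-seq marks open chromatin by the insertion of sequencing adapters by a transposase. The cells came from 1 Holstein bull calf aged 2 weeks that was fed milk replacer, and they were either untreated or kept for 24 h in 5 mM butyrate, a short-chain fatty acid of the rumen that inhibits histone deacetylases. The 4 libraries formed 2 groups of 2. Their labels disagreed about the treatment: the deposited library names call a first pair Control and the second BT, but the sample titles and treatment entries give butyrate for the pair named Control. The groups are called Control-named and BT-named after the table. The pairs are the same by either label, so the doubt concerns only which way each difference runs. The supplement of the study names both ATAC libraries of a group as biological replicates, without stating that they came from separate cultures. The p-values cover no more than the spread seen between these libraries.

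Each listed interval carried a signal at its summit (peak value) and a mean signal over its length (average value), both without a stated scaling between libraries. The lists held 83391 to 98962 intervals per library with a lowest peak value of 21 or 22, and read totals were not used here. A region missing from a list was therefore not a region without signal. The libraries were scaled in 3 ways: values as deposited, median centred and quantile normalized. Over all 65892 regions listed in all 4 libraries, the median log2 fold change (BT-named over Control-named, on log2(average value + 1)) was -0.24 as deposited, 0.13 after median centring and 0.05 after quantile normalization. A region is called higher or lower below only where limma with Benjamini-Hochberg adjustment over all those regions passed 0.05 in the same direction under all 3 scalings, unless values as deposited are named.

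The listed HOX regions were mostly low, and HOXC held nearly as many as the other clusters together. HOXC held 30 regions over 123.0 kb on chromosome 5, HOXA 17 over 104.1 kb on chromosome 4, HOXB 10 over 77.1 kb on chromosome 19 and HOXD 6 over 44.2 kb on chromosome 2 (assembly UMD3.1). The median of the regions' mean average values was 42.1, against 53.7 over all regions of the series. A CpG island, a stretch of CpG-dense DNA common at developmental promoters, was annotated in 42 of the 63 regions (66.7%), against 16.8% of all regions. Peak values of the HOX regions reached at most 330, and their lengths ran from 200 to 1501 bp.

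**Figure D1:**
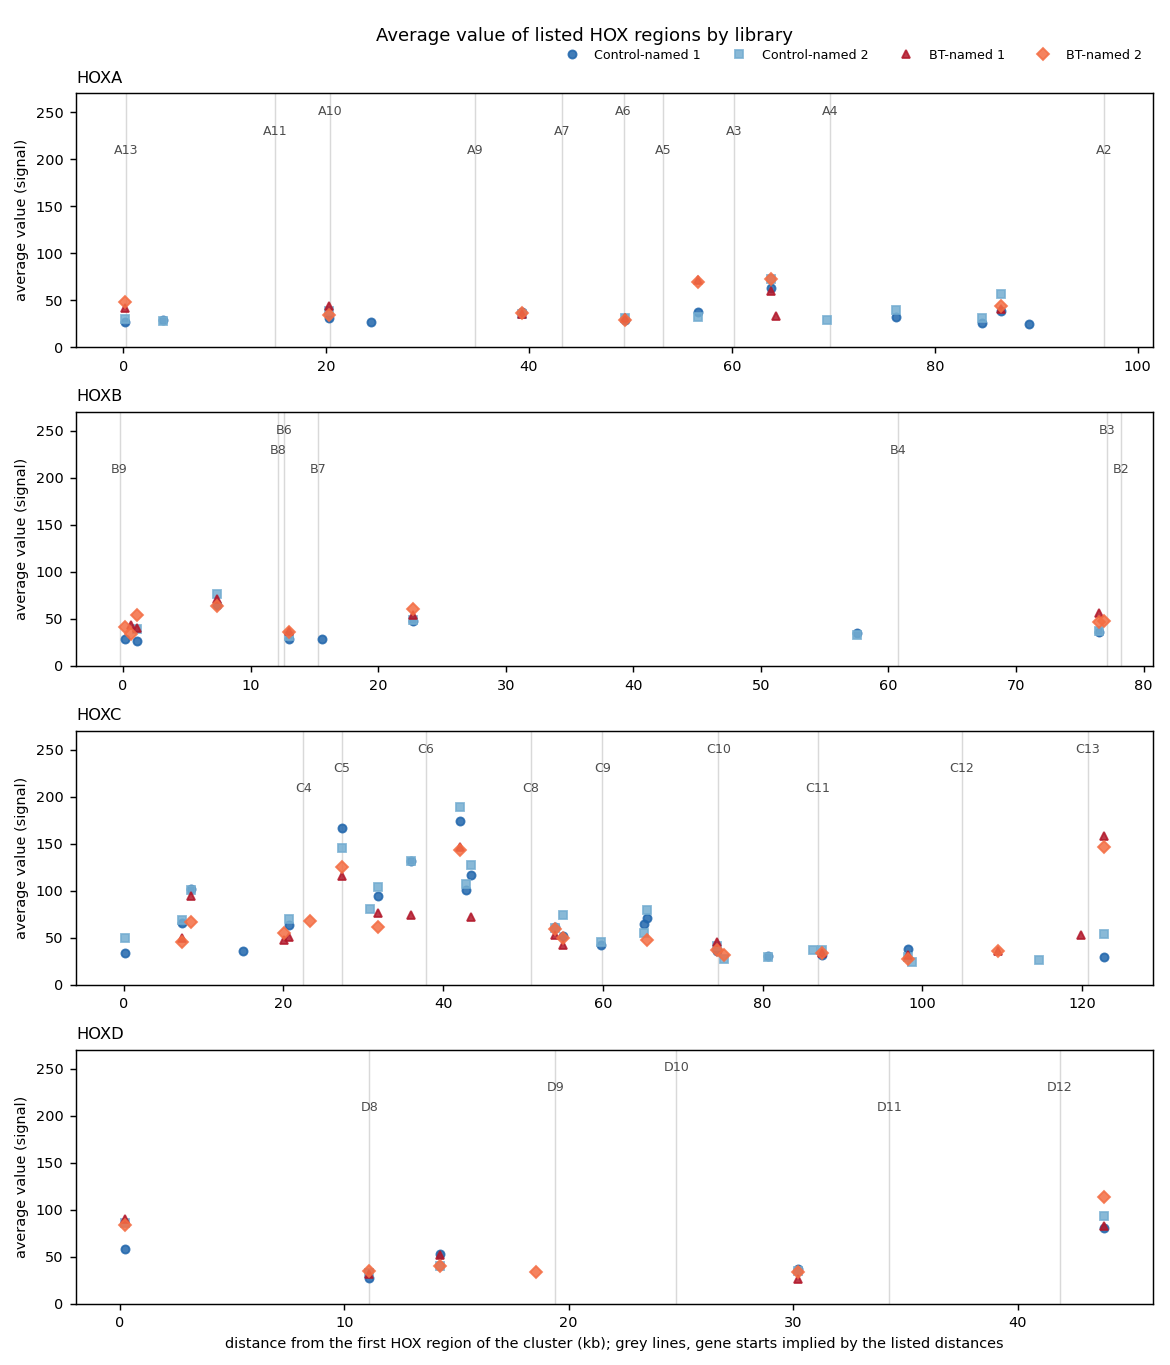
Average value (signal, no unit) of listed HOX regions in each of the 4 libraries, against the distance in kb from the first HOX region of its cluster, which differs in scale between panels. Grey lines mark gene starts implied by the listed distances. The tallest points lie from HOXC5 to HOXC6 and upstream of HOXC13, where both BT-named libraries stand above 140 and both Control-named libraries below 60.

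Both Control-named libraries listed more HOX intervals than both BT-named libraries, but the median average value of those intervals was smaller. The HOX intervals numbered 48 and 49 in Control-named and 40 and 41 in BT-named libraries. The whole lists also differed, with 94941 and 98962 against 83391 and 84808 intervals, so HOX intervals were 0.0506% and 0.0495% of the Control-named lists and 0.0480% and 0.0483% of the BT-named lists. They covered 16905 and 18562 bp against 14386 and 15357 bp, and their mean length was 352.2 and 378.8 bp against 359.7 and 374.6 bp. The groups did not overlap in the number of HOX intervals, as in the whole lists, or in covered bases, and overlapped in mean length. The bases covered by the whole lists were not compared.

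The median average value of the HOX intervals ran the other way from that of the whole lists. It was 37.1 and 40.4 in Control-named and 50.5 and 48.1 in BT-named libraries, while the whole lists had medians of 65.0 and 67.9 against 57.6 and 57.8. The HOX medians did not overlap between groups, and neither did those of the whole lists. With 2 libraries against 2, the exact permutation test (two-sided) cannot give a p below 0.333, which was the value for the number, the covered bases and both medians. The HOX intervals behind these medians were not the same regions in each library. Over the 28 HOX regions listed in all 4 libraries the medians were 38.3 and 45.2 against 50.6 and 48.6. The median log2 fold change of those regions was -0.02 as deposited, with 13 positive and 15 negative, so the typical region did not rise. In bulk libraries of this kind, a change in the share of cells with an open region and a change within each cell cannot be told apart. HOXA intervals numbered 13 and 13 against 10 and 9, and HOXC intervals 22 and 25 against 19 and 18, in the same direction as the whole lists. HOXB had 8 and 6 against 6 and 8, and HOXD 5 and 5 against 5 and 6, so these overlapped or met.

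Of the 63 HOX regions, 28 were listed in all 4 libraries (44.4%, with 56.8% of all regions). A further 9 occurred in the lists of both Control-named libraries alone (14.3%, with 13.1% of all regions) and 3 in both BT-named libraries only (4.76%, with 4.51%). The shares of regions found in 1 group only were thus near those of the whole series. Of the remaining 23 regions, 15 were listed in 1 library, 6 in 3 libraries and 2 in 1 library of each group. Of the 15, Control-named replicate 1 listed 4, Control-named replicate 2 listed 6, BT-named replicate 1 listed 2 and BT-named replicate 2 listed 3. Those in 1 library had a median peak value of 40, against 82.5 for the highest peak value of the regions in all 4.

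**Figure D2:**
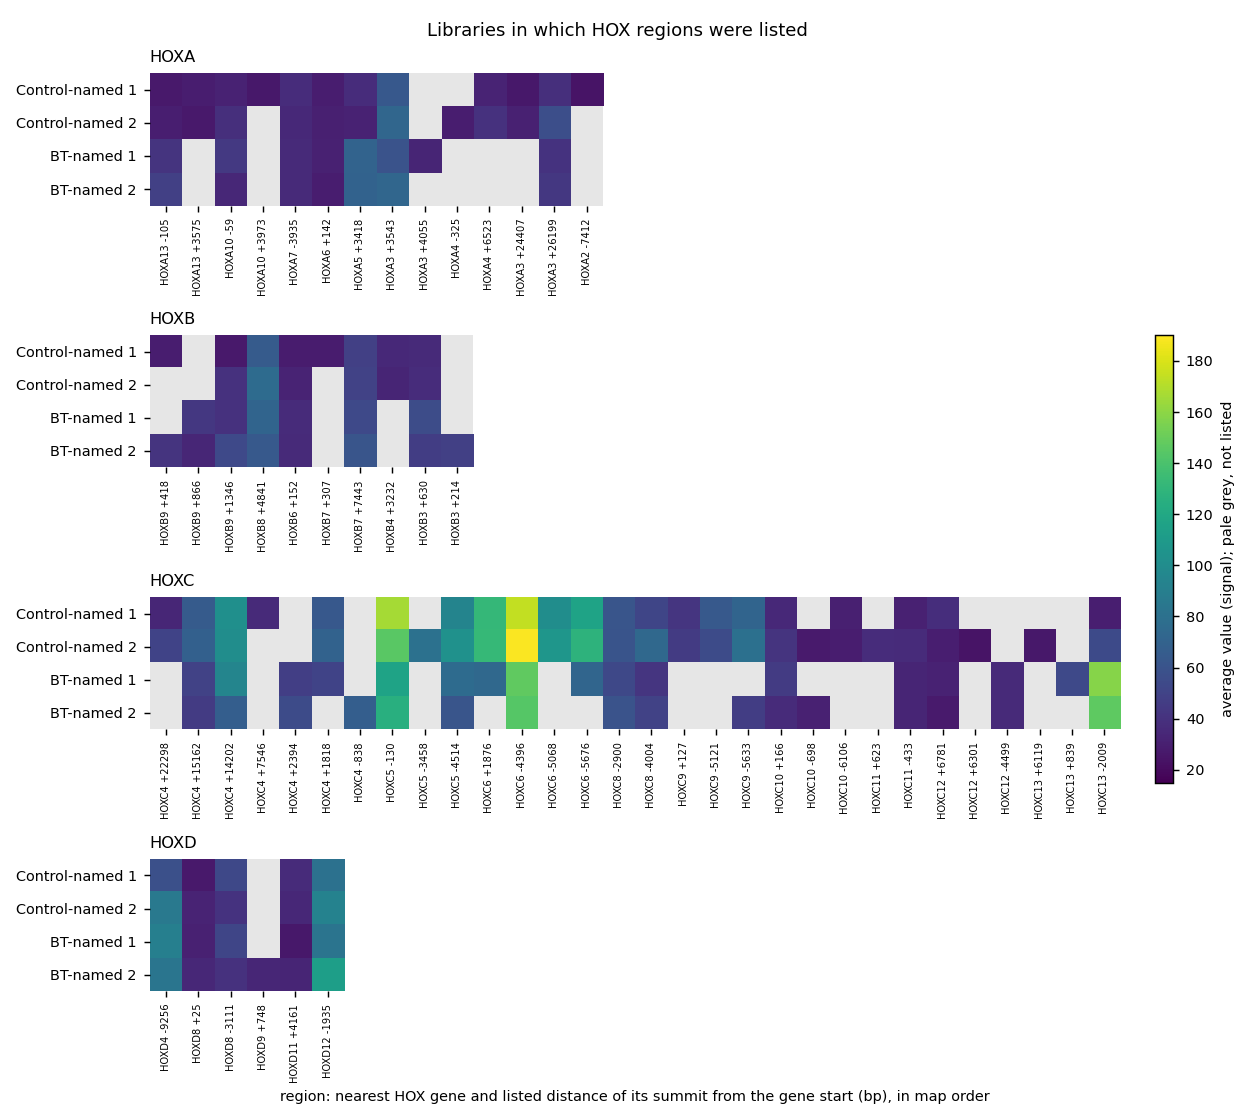
HOX regions in map order within each cluster (columns, named by the nearest HOX gene and the listed distance of the summit from its start in bp) and the 4 libraries (rows). Colour gives the average value and pale grey a region that the library did not list: 28 columns are filled in all 4 rows, 9 in the Control-named rows only and 3 in the BT-named rows only.

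HOX promoters were taken as regions with a summit within 1 kb of an annotated HOX start. Of the 33 named genes, 18 had such a region in at least 1 library and 11 in all 4, among them HOXA13, HOXA10, HOXA6, HOXB8, HOXB6, HOXB3, HOXC11, HOXC10, HOXC5 and HOXD8. Another 7 had one in 1 to 3 libraries, and 15 were named only at a greater distance. HOXB1, HOXB5, HOXB13, HOXD1, HOXD3 and HOXD13 were named by no interval. Within 2.5 kb instead of 1 kb, 17 genes had a region in all 4 libraries.

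HOXA was led by regions of HOXA5 and HOXA13, and it held 2 of the 5 HOX regions that were higher in BT-named libraries. HOXA5, a factor of lung and thoracic development in mice, had a region with a CpG island 3418 bp past its start (chr4:69353305-69353754). In Control-named libraries its average value was 37.0 and 31.75, and in BT-named libraries 70.9 and 69.8. The groups stood far apart (log2 fold change 1.02, SE 0.20, adjusted p = 3.44e-06 by limma). The call was kept without any 1 library (a fit in which the remaining library of that group was taken to vary like those of the other group) and with peak values in place of average values.

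The promoter of HOXA13, the most posterior HOXA gene, known for its part in limb and urogenital development, had a summit 105 bp upstream of the start (chr4:69296907-69297308). In Control-named libraries its average value was 27.1 and 30.0, and in BT-named libraries 41.2 and 48.1, with no overlap. The log2 fold change was 0.62 (SE 0.19, adjusted p = 0.0040 by limma). Leaving out BT-named replicate 2 gave a log2 fold change of 0.51 and an adjusted p of 0.081.

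The promoters of HOXA10 and HOXA6 overlapped between groups. HOXA10, a regulator of uterine development, had 31.4 and 38.4 against 44.2 and 34.2 at a region 59 bp upstream (log2 fold change 0.16, SE 0.19). HOXA6 had 28.9 and 30.6 against 31.0 and 28.75 at a region 142 bp past its start (0.01, SE 0.18). The promoter of HOXA4, 325 bp upstream, was listed in Control-named replicate 2 alone, at an average value of 29.3.

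The HOXA region with the highest mean lay 3543 bp past the start of HOXA3, a gene of the pharyngeal arches, and had 63.25 and 72.7 against 59.5 and 72.75, which overlapped. The region 3935 bp upstream of HOXA7 had 37.2 and 35.2 against 35.5 and 35.9, and the region 26199 bp past the start of HOXA3 had 38.9 and 56.8 against 40.5 and 43.2. No HOXA region was listed in the BT-named libraries only. Of the 17 HOXA regions, 3 occurred in the Control-named pair alone, with highest peak values of 40 to 51.

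HOXB held another pair of regions that were higher in BT-named libraries, at its posterior and its anterior end. HOXB9, which takes part in thoracic patterning, had a region with a CpG island 1346 bp past its start (chr19:38504212-38504619) with 26.7 and 39.6 in Control-named and 40.1 and 53.8 in BT-named libraries. The lowest BT-named value stood just above the highest Control-named value (log2 fold change 0.50, SE 0.20, limma adjusted p = 0.028). The promoter region of HOXB3, a hindbrain gene, lay 630 bp past its start (chr19:38579654-38579995) with 35.6 and 37.6 against 55.8 and 47.1. These groups did not overlap (log2 fold change 0.48, SE 0.20, limma adjusted p = 0.037). A second region near the HOXB3 start, 214 bp past it, was listed in BT-named replicate 2 alone at 48.2.

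Both HOXB calls were close to the threshold. With peak values the adjusted p was 0.053 for HOXB9 and 0.14 for HOXB3 in values as deposited. For HOXB9 the log2 fold change was 0.22 (adjusted p = 0.44) without Control-named replicate 1 and 0.29 (adjusted p = 0.38) without BT-named replicate 2. For HOXB3 it stayed between 0.36 and 0.60 without any 1 library, and the adjusted p lay between 0.056 and 0.28.

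Beside the HOXB9 region, the start of that gene was covered in pieces. A region 418 bp past the start was listed in Control-named replicate 1 at 29.1 and in BT-named replicate 2 at 41.5. A region 866 bp past the start (chr19:38503822-38504150) was listed in both BT-named libraries only, at 43.5 and 33.75, and a Control-named interval began 61 bp away. The entries of 1 group here thus adjoined intervals of the other.

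The region that served as promoter of both HOXB6 and HOXB8 (chr19:38516063-38516647, at 585 bp the longest of HOXB) had 28.3 and 32.2 against 36.75 and 36.1. The groups did not overlap, but the region did not pass the test as deposited (log2 fold change 0.26, SE 0.19, limma adjusted p = 0.26). By the listed distances HOXB9, HOXB6, HOXB7 and HOXB2 started on the plus strand and HOXB8, HOXB4 and HOXB3 on the minus strand. All HOXA genes shared a strand, as did all HOXC genes. The implied order of the HOXB starts also differed from the RefSeq gene order, at HOXB3, HOXB4, HOXB6 and HOXB7. In the other clusters the resolved starts kept that order. Promoter calls in HOXB, among them those of HOXB3, HOXB6 and HOXB8, depend on these uncertain starts. The tallest HOXB region lay 4841 bp past the start of HOXB8, with 65.2 and 76.4 against 71.2 and 63.5. Its groups overlapped.

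HOXB7 had a promoter region, 307 bp past its start, in Control-named replicate 1 only, at 28.4. A region 7443 bp past its start had 47.8 and 49.2 against 53.7 and 60.9, which did not overlap and did not pass the test as deposited (log2 fold change 0.23, SE 0.19, limma adjusted p = 0.34). Only Control-named libraries listed a region 3232 bp past the start of HOXB4, at 35.1 and 33.1, and the nearest BT-named interval lay 16787 bp away.

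HOXC held both the largest change of any HOX region and the tallest regions. HOXC13, the most posterior HOXC gene, which controls keratin genes of hair and nail in humans and mice, had a region without a CpG island 2009 bp upstream of its start (chr5:26253985-26254549). In Control-named libraries its average value was 30.0 and 54.25, and in BT-named libraries 158.5 and 146.5. Its peak value was 36 and 74 against 264 and 242. The BT-named values were far above both Control-named values, with a mean of 152 ± 8.51 against 42.1 ± 17.1 (SD, n = 2). The log2 fold change was 1.89 (SE 0.18, limma adjusted p = 5.29e-17), and the call was kept without any 1 library. The only listed region nearer to the start of HOXC13, 839 bp past it, occurred in BT-named replicate 1 alone at 53.4.

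By the mean over the 4 libraries, the tallest HOX signal lay from HOXC4 to HOXC6, genes of the neck and upper thorax. In the BT-named libraries alone the highest average values were those upstream of HOXC13, at 158.5 and 146.5. The tallest region by the mean over the 4 libraries, 4396 bp upstream of HOXC6 (chr5:26173112-26174059), had 174.1 and 188.8 against 147.0 and 143.7. Its groups did not overlap, but it did not pass the test (log2 fold change -0.32, SE 0.14, limma adjusted p = 0.060). The region 14202 bp past the start of HOXC4 (chr5:26139149-26140649), at 1501 bp the longest HOX region, had 102.1 and 100.6 against 94.9 and 67.1. This difference did not pass either (-0.34, SE 0.17, limma adjusted p = 0.093).

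Here 3 HOXC regions passed the threshold downward, but in values as deposited only. The HOXC5 promoter, with a summit 130 bp upstream (chr5:26158314-26159277), had 166.7 and 145.1 against 116.2 and 125.5 (log2 fold change -0.36, SE 0.15, limma adjusted p = 0.041). The region 4514 bp upstream of HOXC5 (chr5:26163170-26163603) had 94.1 and 103.75 against 76.25 and 61.0 (-0.53, SE 0.17, limma adjusted p = 0.0075). The region 15162 bp past the start of HOXC4 (chr5:26138517-26139034) had 65.3 and 68.6 against 49.4 and 45.3 (-0.49, SE 0.19, limma adjusted p = 0.025). In none of these did the groups overlap. After median centring their log2 fold changes were 0.00, -0.17 and -0.13, and the lowest adjusted p was 0.386.

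The region 2900 bp upstream of HOXC8 had 60.9 and 60.7 against 52.9 and 59.5, with no overlap and no call (log2 fold change -0.11, SE 0.19, limma adjusted p = 0.66). The third largest negative value of the HOX regions was 4004 bp upstream of HOXC8, a thoracic gene, with 51.7 and 74.3 against 42.1 and 49.2 (log2 fold change -0.44, SE 0.19, limma adjusted p = 0.056). With the replicate number as a block its adjusted p was 0.043 as deposited. The lower Control-named value, 51.7, stood just above the higher BT-named value, 49.2.

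Toward the posterior end, from HOXC10 to HOXC12, the regions listed in all 4 libraries were low and overlapped between groups. The promoter region of HOXC10, known in mice for lumbar motor neurons, 166 bp past its start, had 35.4 and 41.3 against 45.5 and 36.7 (log2 fold change 0.09, SE 0.20). The promoter region of HOXC11, 433 bp upstream, had 31.25 and 36.5 against 33.3 in both BT-named libraries (-0.02, SE 0.19). The region 6781 bp past the start of HOXC12 had 37.6 and 30.0 against 31.7 and 27.7. Nearby, a region 698 bp upstream of HOXC10 was listed in Control-named replicate 2 at 27.6 and BT-named replicate 2 at 31.3, and a region 623 bp past the start of HOXC11 in Control-named replicate 2 alone at 36.9.

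The HOXC9 promoter was found in the Control-named lists alone, 127 bp past the start (chr5:26190939-26191540), at 42.3 and 45.7, and the nearest BT-named interval lay 4254 bp away. The promoter of HOXC4, 838 bp upstream, was listed in BT-named replicate 2 alone at 67.3. These entries of 1 library or 1 group have no test.

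Of the 6 HOX regions listed in 3 libraries, 4 lay in HOXC, and each of these lacked 1 BT-named library. The region 1876 bp past the start of HOXC6 (chr5:26167333-26167713) had 131.6 and 132.1 in the Control-named libraries, 74.5 in BT-named replicate 1 and no entry in BT-named replicate 2. The region 5676 bp upstream of HOXC6 (chr5:26174928-26175165) had 116.6 and 127.9, then 71.9 and no entry, in the same order. The region 1818 bp past the start of HOXC4 (chr5:26151972-26152471) had 63.5 and 70.1, then 50.4 and no entry. In all 3 the listed BT-named value was the lowest. The region 5633 bp upstream of HOXC9 (chr5:26196891-26197274) had 71.25 and 79.8 in the Control-named libraries, no entry in BT-named replicate 1 and 47.1 in BT-named replicate 2.

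Among the regions listed in both Control-named libraries only, the highest peak values were in HOXC. The region 5068 bp upstream of HOXC6 (chr5:26174268-26174531) had peak values of 119 and 127, and a BT-named interval with a peak value of 289 lay 208 bp away, within the tallest region. The region 5121 bp upstream of HOXC9 (chr5:26196466-26196768) had 78 and 66, with a BT-named interval 142 bp away. The region 22298 bp past the start of HOXC4 (chr5:26131521-26131897) had 39 and 64, with the nearest BT-named interval 6619 bp away. The first 2 thus adjoined signal listed in BT-named libraries. The other 6, in HOXA, HOXB and HOXC, had highest peak values of 35 to 52, and their nearest BT-named intervals lay 1473 to 16787 bp away.

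The 3 regions listed in both BT-named libraries only had highest peak values of 39 to 66. The region 2394 bp past the start of HOXC4 (chr5:26151428-26151760) had peak values of 53 and 66, with a Control-named interval 211 bp away. The region 4499 bp upstream of HOXC12 (chr5:26240842-26241145) had 39 and 39, with the nearest Control-named interval 4866 bp away and at a peak value of 32. The HOXB9 region described above had 54 and 41. Only the HOXC12 region thus stood apart from any listed signal of the other group.

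HOXD had few regions, and limma called 0 of its 5 tested regions under all 3 scalings. At an unadjusted p under 0.05 under all 3 scalings the count was also 0 in either direction. Taken alone, median centring gave 3 higher regions and quantile normalization 2, while values as deposited gave 0. The HOXD8 promoter, with summits as near as 7 bp to the start, had 26.7 and 32.5 against 31.1 and 34.2 (log2 fold change 0.14, SE 0.19). The tallest and, at 674 bp, longest HOXD region lay 1935 bp upstream of HOXD12, a gene of distal limb development (chr2:20850759-20851432), with 80.1 and 92.7 against 82.0 and 113.1. The groups overlapped (0.16, SE 0.17), and the value turned to -0.07 without BT-named replicate 2. A region 9256 bp upstream of HOXD4 had 57.8 and 85.5 against 90.2 and 83.1, which overlapped. Its log2 fold change as deposited was 0.30 (SE 0.18, limma adjusted p = 0.17). It was 0.66 after median centring (limma adjusted p = 0.0018) and 0.64 after quantile normalization (limma adjusted p = 0.0028). Between HOXD8 and HOXD12 the values were low. The region 3111 bp upstream of HOXD8 had 52.8 and 40.4 against 51.9 and 40.1, which overlapped. The region 4161 bp past the start of HOXD11 had 36.4 and 34.6 against 26.6 and 33.3, with no overlap and no call (log2 fold change -0.25, SE 0.19, limma adjusted p = 0.29). The HOXD9 promoter was listed in BT-named replicate 2 alone at 33.7, 748 bp past the start.

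Of the 28 regions with a value in all 4 libraries, 5 were higher in BT-named libraries as deposited, and the same count was higher under all 3 scalings (17.9%, against 6.90% and 6.89% of all tested regions). Values as deposited gave 3 lower regions (10.7%, with 39.4% of all tested regions), and under all 3 scalings limma gave 0 lower HOX regions, with 20.0% of all tested regions. At an unadjusted p under 0.05 the count of lower regions under all 3 scalings was also 0. All tested regions are an unlike background, since 36.5% of HOX regions but 13.5% of all regions lay within 1 kb of a gene start. Among 12871 gene promoters listed in all 4 libraries, 4.06% were higher and 4.72% lower under all 3 scalings. A count of 0 lower among 28 is thus near the share of promoters. The standard errors of the HOX regions ran from 0.14 to 0.20 on the log2 scale, and the smallest upward change that passed was 0.48, at HOXB3. The median log2 fold change of the 28 regions was -0.02 as deposited, against -0.24 over all regions. It was 0.34 against 0.13 after median centring and 0.24 against 0.05 after quantile normalization.

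**Figure D3:**
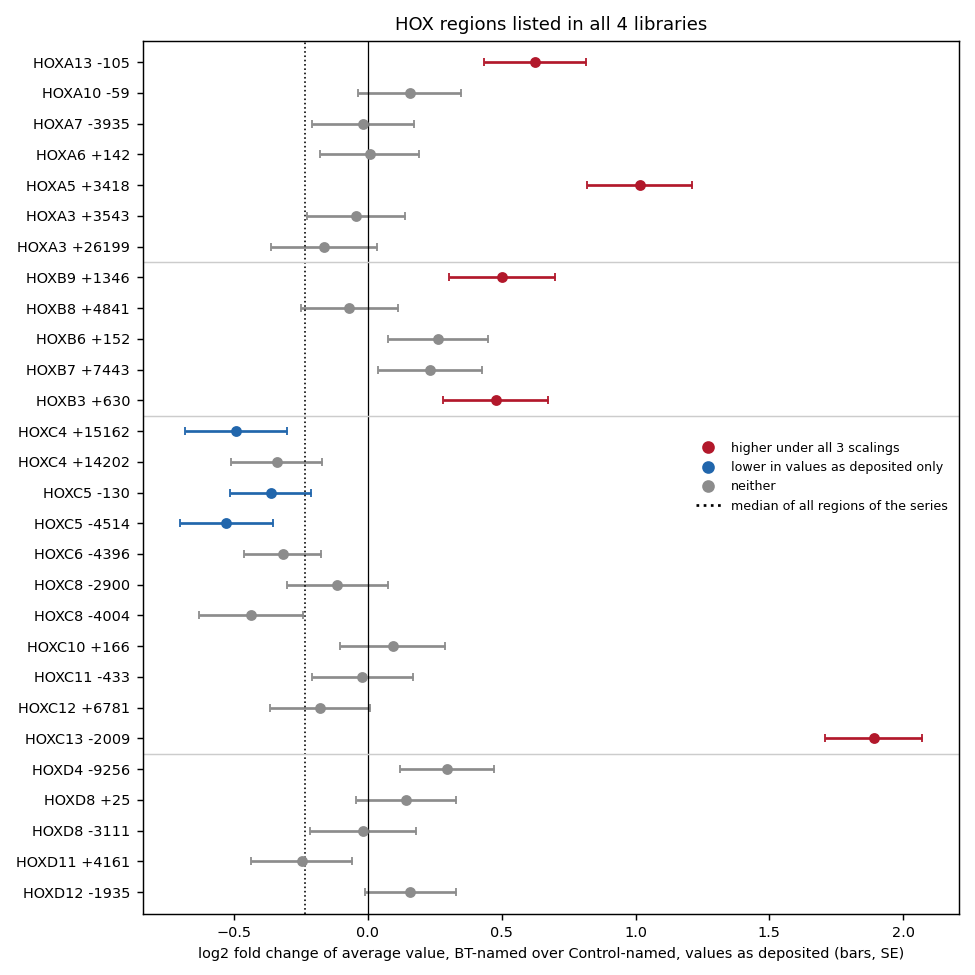
Log2 fold change (BT-named over Control-named, values as deposited) with its SE for the 28 HOX regions listed in all 4 libraries, in map order by cluster. The 5 regions higher under all 3 scalings lie between 0.48 and 1.89, the 3 that were lower as deposited only lie in HOXC, and the dotted line is the median of all regions, -0.24.

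The clusters differed in these values, and no test of that difference was made. The median log2 fold change as deposited was 0.01 over 7 HOXA regions, 0.26 over 5 HOXB regions, -0.32 over 11 HOXC regions and 0.14 over 5 HOXD regions. Values were positive in 11 of the 17 regions of HOXA, HOXB and HOXD and in 2 of the 11 HOXC regions (64.7% and 18.2%), against 29.4% of all tested regions. The median average value of the HOXC regions was 60.9 and 68.6 against 52.9 and 59.5, and that of the HOXB regions was 35.6 and 39.6 against 53.7 and 53.8. HOX regions with a CpG island (21 tested) had a median of 0.01 and those without (7 tested) one of -0.02.

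Regions within 100 kb outside the clusters that named no HOX gene gave 23 tested regions among 38. Their median log2 fold change was -0.15 as deposited, with 1 higher and 6 lower under all 3 scalings. Beside HOXC the flanks had a median of -0.62 over 11 regions, 5 of them lower under all 3 scalings, while none of the 11 HOXC regions was lower. These flanks were unlike HOXC in kind, since 2 of their 19 regions had a CpG island, against 16 of the 30 HOXC regions. The part of this in the contrast was not tested. Around HOXB the 5 flanking regions had a median of -0.05, against 0.26 in HOXB, and 1 was lower. The 4 tested flanking regions of HOXD had a median of -0.17, against 0.14 in HOXD, and 0 were called. At HOXA the order was reversed. Its 3 tested flanking regions had a median of 0.12, against 0.01 in HOXA, and 1 was higher.

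**Figure D4:**
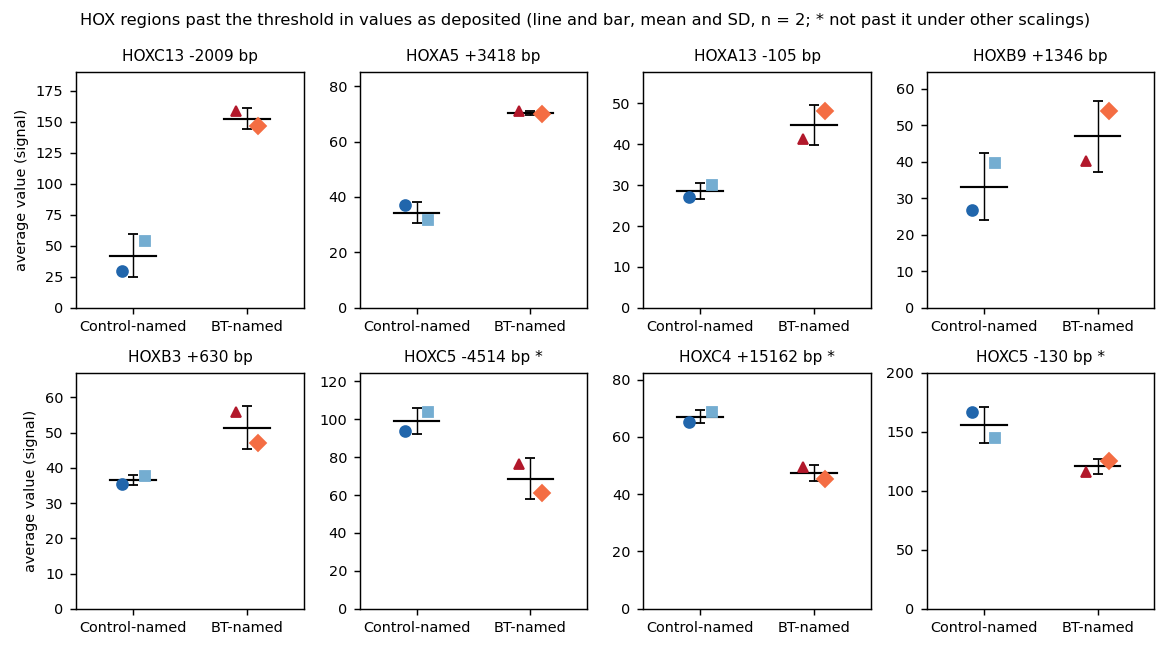
Average value by library (points), with mean and SD (line and bar, n = 2), at the 8 HOX regions past the threshold in values as deposited, each titled by its nearest gene and listed distance in bp. In the first 5 panels the BT-named points lie above the Control-named points, by most at HOXC13 (158.5 and 146.5 against 30.0 and 54.25), and the 3 panels with an asterisk show the reverse order that was not past the threshold under other scalings.

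The HOX clusters also carry microRNA genes, which restrain HOX messages. MIR10A and MIR10B were each named by 4 intervals, with the closest summits 5478 and 9816 bp upstream. MIR196B was named by 5 intervals, MIR196A-1 by 11, MIR196A-2 by 13 and MIR615, which lies in the HOXC5 gene in other mammals, by 20. Of these, only MIR615 had a summit within 1 kb, 525 bp upstream. The names MIR196A, MIR196A1 and MIR196A2 were in no interval.

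Promoters of the factors that act with or on HOX genes were compared in the same fit, and few passed. In the TALE, Polycomb, Trithorax and retinoic acid lists limma called 0 promoters, at an unadjusted p under 0.05 under all 3 scalings the count was also 0. A gene's promoter counted as measured when a region within 1 kb of its start was listed in all 4 libraries, and over 12871 measured promoters 4.06% were higher and 4.72% lower under all 3 scalings, with a median log2 fold change of -0.12. TALE homeobox genes, whose proteins bind DNA with HOX proteins, had 4 of 9 promoters measured and none was called (median -0.17). Among them MEIS2 had -0.23 and PKNOX2 -0.20. Of 29 Polycomb genes 18 were measured and none was called (median -0.02). PHC1 and PHC3, subunits of the complex that compacts silent HOX chromatin, had -0.54 and -0.40. Both passed as deposited (limma adjusted p = 0.0035 and 0.039), but after median centring they had -0.18 and -0.04. PCGF6 and CBX7 went the other way, with 0.31 each as deposited and 0.67 each after median centring. Of 16 Trithorax and H3K27 demethylase genes 11 were measured and none was called (median -0.15). KMT2A, the histone methyltransferase that maintains HOX expression, had -0.47 and its partner DPY30 -0.31. KMT2A passed as deposited (limma adjusted p = 0.021) but had -0.11 after median centring.

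Of 18 retinoic acid genes 9 were measured and none was called (median -0.12). DHRS3, which lowers retinoic acid, had -0.49 and the receptor RARA -0.25. DHRS3 passed as deposited (limma adjusted p = 0.0050) but had -0.13 after median centring. Of 15 ParaHox and cluster-edge homeobox genes 3 were measured. MEOX1, a homeobox gene of somites, was lower, with 194 and 223.1 in Control-named and 138.1 and 118.9 in BT-named libraries (log2 fold change -0.69, SE 0.14, limma adjusted p = 1.68e-05). GSX1 had -0.25 and GBX2 -0.16.

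Markers of cell types moved between the groups as well. Of 10 epithelial markers 7 were measured, and KRT14 (1.45), KRT18 (0.86) and CLDN4 (0.92) were higher in BT-named libraries, while KRT5 had -0.63 and EPCAM -0.48. KRT5 and EPCAM passed downward as deposited (limma adjusted p = 0.0021 and 0.028) but had -0.27 and -0.12 after median centring. CDH1, TP63 and GRHL2 had no summit within 1 kb of their starts. The summed average value of the measured epithelial promoters was 504.1 and 646.0 in Control-named and 754.3 and 780.5 in BT-named libraries. This difference was carried by KRT14, KRT18 and CLDN4, since KRT8 and ESRP1 overlapped between groups and KRT5 and EPCAM had negative values. Of 8 mesenchymal markers 2 were measured and VIM was lower (-0.67), with sums of 375.9 and 419.2 against 247.3 and 295.8, a difference carried by VIM. The other measured promoter, COL1A2, overlapped between groups (70.3 and 84.8 against 58.2 and 83.1). Of the unmeasured ones DCN was found in the Control-named pair alone (peak values 41 and 37), whereas COL1A1 had no entry in Control-named replicate 1, 119 in Control-named replicate 2, and 149 and 193 in the BT-named libraries. Of 7 immune and endothelial markers 2, SPI1 and KDR, were measured and 0 were called (also 0 at an unadjusted p under 0.05 under all 3 scalings), with sums of 83.8 and 84.4 against 68.7 and 73.9. The sums of each of these marker sets did not overlap between groups. As deposited, the median log2 fold change was 0.22 for the epithelial, -0.41 for the mesenchymal and -0.23 for the immune and endothelial set. It was -0.24 over all tested regions and -0.12 over all measured promoters. The immune and endothelial difference was thus near that of all regions. The part of these markers in the HOX values was not tested.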

How the data were processed

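ATAC-seq was measured in 4 libraries of REPC, 2 Control-named and 2 BT-named, and sequenced as paired reads of 42 nt. Per the submitters' processing notes, the authors used Trim Galore 0.4.1, BWA and MACS2 with the cattle genome UMD3.1. The deposited table gives, for each interval of each library, the signal at the summit and the mean signal over the interval, with nearby genes, distances from gene starts and CpG islands as the authors annotated them. Its scaling between libraries was not given in the sources used here. No column of the authors' own comparisons was used. Starts in the table count from 0, and printed coordinates count from 1.

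Intervals overlapping by at least 1 bp were merged across libraries. A region was a HOX region when the gene list of any of its intervals named a HOX gene, and its name here is the nearest HOX gene and the listed distance. The highest value was used where intervals of 1 library fell together, as in 2 HOX regions. Values were taken over each library's interval, whose ends differed between libraries. Regions with a value in every library were tested on log2(average value + 1) in limma 3.58.1 under R 4.3.3, two-sided with trended and robust variance, and adjusted by Benjamini-Hochberg over 65892 regions at 0.05, and the procedure was tested on simulated data. For counts per library the two-sided exact permutation test of the group means was used. Merging and summaries used Python 3.11.15 and pandas 2.3.3. The 33 HOX names were all among the 39 HOX genes of RefSeq's ARS-UCD2.0 gene table, used only for names and gene order.

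HOX regions named in the text were those at promoters, those called, the 3 largest changes in each direction, the 3 highest per group among regions listed in 1 group only, and the tallest and longest of each cluster. From the other gene lists, called genes and up to 2 more were named, and PCGF6 and CBX7 were added after their values were seen. Regions past HOXB7 (7443 bp), HOXB4, HOXA3 (26199 bp), HOXC12 (6781 bp) and HOXD11, upstream of HOXD4, HOXD8 and HOXC8 (2900 bp), and those in 3 libraries fell outside this rule and were named after their values were seen. The members and lists were chosen with earlier results of these data known. Alternatives were median centring, quantile normalization, peak values, a pseudocount of 10, a filter at the lower quartile, plain limma variance, the replicate number as a block, leaving out each library, merging up to 100 bp apart, a peak value of 40 or more, coverage of 50% of a region, and other promoter windows. With 2 libraries per group the precision is limited, and read depth was not used. No sequences are printed. The results of 1 gene are not reported here, in the text or the figures.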

Additional observations from a re-analysis of the deposited data

How the results depend on the processing

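Counts of calls in HOX regions depended on the scaling. In values as deposited 5 regions were higher and 3 lower. Median centring gave 12 higher and 0 lower, and quantile normalization 8 higher and 0 lower. Peak values gave 3 higher, both as deposited and under all 3 scalings, and a filter at the lower quartile of the mean average value gave 2 higher. The filter, at 52.2, removed the called regions of HOXA13, HOXB9 and HOXB3 before the fit. Their mean average values were 36.6, 40.1 and 44.0, so this drop was fixed by the cut. Leaving out 1 library gave 2 to 5 higher (2 without BT-named replicate 2, 3 without Control-named replicate 1) and 0 to 4 lower (0 without BT-named replicate 2, 1 without Control-named replicate 2) as deposited, and 2 to 5 higher under all 3 scalings. The median log2 fold change of -0.02 became 0.34 after median centring, 0.24 after quantile normalization and -0.091 under the filter, and ran from -0.027 to 0.072 without 1 library.

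At a peak value of 40 or more, 18 HOX regions were listed in all 4 libraries, 4 only in the Control-named pair and 4 only in the BT-named pair, where the full lists gave 9 and 3. Leaving out 1 library gave 10 to 15 regions in the Control-named libraries only (15 without Control-named replicate 1) and 4 to 6 in the BT-named libraries only. These counts could only stay or rise, because fewer libraries then had to list or lack a region. With a summit within 2.5 kb, 17 HOX genes had a promoter region in all 4 libraries.

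Of the regions whose values changed sign, none had been called under all 3 scalings. The region past HOXB8 (4841 bp) turned to 0.29 after median centring, 0.27 after quantile normalization and 0.053 with peak values, and ran from -0.18 to 0.044 without 1 library. The region upstream of HOXA7 turned to 0.34 and 0.14 after the same scalings (-0.056 to 0.022 without 1 library), and that past HOXA3 (3543 bp) to 0.32 and 0.29 (-0.19 to 0.10). The region past HOXC4 (14202 bp) turned to 0.021 and 0.029, that upstream of HOXC6 to 0.044 and 0.033, and the HOXC5 promoter to 0.0094 after quantile normalization. The region upstream of HOXD12 ran from -0.071 to 0.39 without 1 library. Median centring added 0.36 to every region, so any value between -0.36 and 0 became positive by construction. The cause of the other sign changes was not tested.

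The replicate numbers were treated as labels only, since the deviations of equally numbered libraries correlated at 0.03 (Pearson's r over 65892 regions) and there were 2 pairs. With the replicate block, 5 HOX regions were higher and 4 lower as deposited, 5 were higher and 0 lower under all 3 scalings, and the median log2 fold change was -0.02. A pseudocount of 10 and merging up to 100 bp apart changed no call. With 2 libraries per group, a difference within their spread was not detectable, and the HOXB3 call was lost whichever library was left out, while its log2 fold change stayed between 0.36 and 0.60.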
